A study of Mus musculus with 6 samples.

Results

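The genes of the major histocompatibility complex (MHC) and of antigen presentation were examined in primary mouse fibroblasts treated with the chemokine CXCL3. Members were the protein-coding genes of the deposited table whose symbol begins with H2-, of which there were 34. To these were added 8 genes chosen by name (B2m, Tap1, Tap2, Tapbp, Erap1, Nlrc5, Cd74 and Ciita). This gave 42 of the 51912 genes in the table, and 37 of the 42 lie on chromosome 17. RNA sequencing covered 3 libraries of primary fibroblasts kept with CXCL3 for 48 h and 3 libraries of control fibroblasts, all from mice aged 6 weeks. The labels give no mouse strain, no organ of origin and no dose of CXCL3, and no genetic change is listed for either group. CXCL3 is a secreted chemokine whose known receptor is CXCR2, and the series title places the experiment in a study of pancreatic cancer spread and myofibroblasts.

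MHC molecules display peptides to T cells. Class I molecules pair a heavy chain with the light chain beta-2 microglobulin and are made by nearly all nucleated cells. Their peptides are cut by the proteasome, carried into the endoplasmic reticulum by the TAP transporter, trimmed there by the aminopeptidase ERAP1 and loaded with the help of tapasin. Class II molecules pair an alpha with a beta chain and are made mainly by macrophages, dendritic cells and B cells. They are held by the invariant chain CD74 until the DM molecule exchanges a fragment of that chain for peptide in the endosome. Transcription of class I genes depends on the coactivator NLRC5 and that of class II genes on CIITA, and interferon gamma raises both. Both coactivators work through a promoter module whose parts include an X2 box and a Y box.

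In these cultures B2m, H2-D1 and H2-K1 were abundant, while most nonclassical class I chains and most class II chains did not reach 1 TPM in 3 libraries, with CXCL3 and without it. Values are TPM, the share of a library's transcripts that belongs to a gene, scaled to transcript length. TPM keep no trace of read number, so sequencing depth is unknown. Controls were more spread out than CXCL3 libraries, with a median SD of a gene's log2(TPM + 1) of 0.086 among CXCL3 libraries and 0.20 among controls. A principal component that carried 52.9% of the variance set controls 2 and 3 apart from control 1 and the CXCL3 libraries. Markers of macrophages, 15 genes, summed to 15639 to 15736 TPM in CXCL3 libraries and to 15971 to 19033 TPM in controls. Most of this was Lyz2, which averaged 13906 TPM over the 6 libraries. Mertk, Mrc1, Fcgr1, Ptprc and Aif1 averaged from 5.99 to 20.9 TPM, and the other macrophage markers from 97.7 to 613 TPM. Fibroblast markers ranged widely. Fn1 was the highest, at 2401 to 2662 TPM in CXCL3 libraries and 1880 to 3008 TPM in controls. Acta2, Col1a1, Col1a2, Col3a1 and Dcn averaged from 300 to 871 TPM over the 6 libraries. Pdgfra, Pdgfrb and Thy1 averaged 12.9, 22.0 and 20.7 TPM, and Lum stayed at or below 0.50 TPM in all 6. Of 9 fibroblast markers tested, 2 were called, both lower with CXCL3 (Acta2 and Col3a1), where 0.160% of all genes tested were called. The part of fibroblast state in the values below was not tested. In whole cultures, fewer cells of a type and less RNA per cell cannot be told apart. Nothing in the labels ties replicates to separate cultures or animals, so p-values measure the spread between these libraries, which may be technical.

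Promoters of 2 abundant and 2 scarce members are shown for the X2 and Y box letters of the module that class I and class II genes share. RefSeq gives a promoter on build GRCm38.p6 for 35 of the 42 members, and the 200 bases before the start of H2-K1, B2m, H2-Aa and H2-Eb1 are printed 5′ to 3′. Capitals mark matches, on either strand, to the Y box core ATTGG, the X2 box core TGACG, the interferon-stimulated response element (ISRE) and the kappaB consensus. Overlapping matches of 1 motif are joined.
H2-K1: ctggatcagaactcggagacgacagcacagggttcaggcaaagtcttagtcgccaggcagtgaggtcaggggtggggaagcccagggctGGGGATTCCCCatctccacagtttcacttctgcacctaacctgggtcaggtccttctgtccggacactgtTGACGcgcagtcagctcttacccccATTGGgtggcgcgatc
B2m: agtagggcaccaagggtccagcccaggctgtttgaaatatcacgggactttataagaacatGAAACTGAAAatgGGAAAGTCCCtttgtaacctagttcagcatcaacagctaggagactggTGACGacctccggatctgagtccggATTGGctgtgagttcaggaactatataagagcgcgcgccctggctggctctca
H2-Aa: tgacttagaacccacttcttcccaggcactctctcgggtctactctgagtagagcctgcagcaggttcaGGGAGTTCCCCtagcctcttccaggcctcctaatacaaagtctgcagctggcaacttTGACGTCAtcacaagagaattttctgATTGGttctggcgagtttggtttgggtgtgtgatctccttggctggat
H2-Eb1: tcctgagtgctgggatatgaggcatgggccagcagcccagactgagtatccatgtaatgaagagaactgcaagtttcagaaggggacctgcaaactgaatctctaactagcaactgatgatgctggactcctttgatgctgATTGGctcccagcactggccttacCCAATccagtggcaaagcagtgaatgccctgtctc
These windows are chr17:34000348-34000547 (minus strand), chr2:122147487-122147686 (plus strand), chr17:34287824-34288023 (minus strand) and chr17:34305667-34305866 (plus strand). Y box letters stood in the 250 bases before the start of 31 of the 35 members, against 33.9% of all 32851 promoters in the RefSeq table. A member with several promoters was counted if any of them matched, while the share over all promoters counts each one. The units therefore differ for H2-K1, H2-DMa and H2-M9. X2 box letters stood in 14 of 35 (17.8% of all promoters), kappaB letters in 10 (7.25%) and ISRE letters in 3, which were B2m, H2-T22 and H2-T23 (2.98%). The H2-K1, B2m and H2-Aa windows each hold X2 box letters followed by Y box letters on the gene's own strand. That of H2-Eb1 holds Y box letters but no X2 box letters. Of the first 3, H2-K1 and B2m were abundant and H2-Aa was at or near 0. A match describes letters in this window and does not show binding, and boxes with other letters were not sought.

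The classical class I heavy chains H2-K1 and H2-D1, which present peptides to CD8 T cells, made up most of the class I chain transcripts. H2-D1 was at 441, 445 and 444 TPM in CXCL3 libraries 1, 2 and 3, against 435, 414 and 434 TPM in controls 1, 2 and 3. The CXCL3 libraries lay wholly above the controls, by a small margin (443.2 ± 2.28 and 427.8 ± 11.7 TPM, mean ± SD, n = 3 each). H2-K1 was at 245, 248 and 250 TPM in CXCL3 libraries, against 260, 268 and 270 TPM in controls (247.5 ± 2.16 and 266.0 ± 5.02 TPM), so that the CXCL3 libraries lay wholly below. Neither difference passed the test given below, and with median-of-ratios scaling the log2 fold change of H2-D1 turned to -0.027. Per library, the ratio of H2-D1 to H2-K1 was 1.80, 1.80 and 1.78 with CXCL3 and 1.67, 1.55 and 1.61 in controls. This ratio does not depend on library scaling and its groups did not overlap, but it was singled out after its values were seen and is given as a description, with no test. The summed level of both genes was nearly the same in the groups (690.7 ± 4.26 TPM with CXCL3 and 693.8 ± 10.6 TPM in controls). In the mean of the 6 libraries H2-D1 ranked 325 and H2-K1 546 among the 51912 genes by TPM.

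H2-K1 (ENSMUSG00000061232) lies on chromosome 17 from 33996017 to 34000347 and H2-D1 (ENSMUSG00000073411) from 35262730 to 35267499 on build GRCm38, with H2-K1 beside the class II genes and H2-D1 beside the Q genes. Heavy chains resemble each other, so reads can match several of them. Of the 50-base words in the longest H2-K1 transcript, 8.11% also occur in a transcript of another gene, with H2-D1 first, and 14.3% of those of H2-D1, with H2-Q1 first. The level of each chain is therefore less certain than that of B2m, whose transcript shares 0 such words. Heavy chain sequences also differ between mouse strains, and the part of strain in these levels was not tested.

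**Figure D1:**
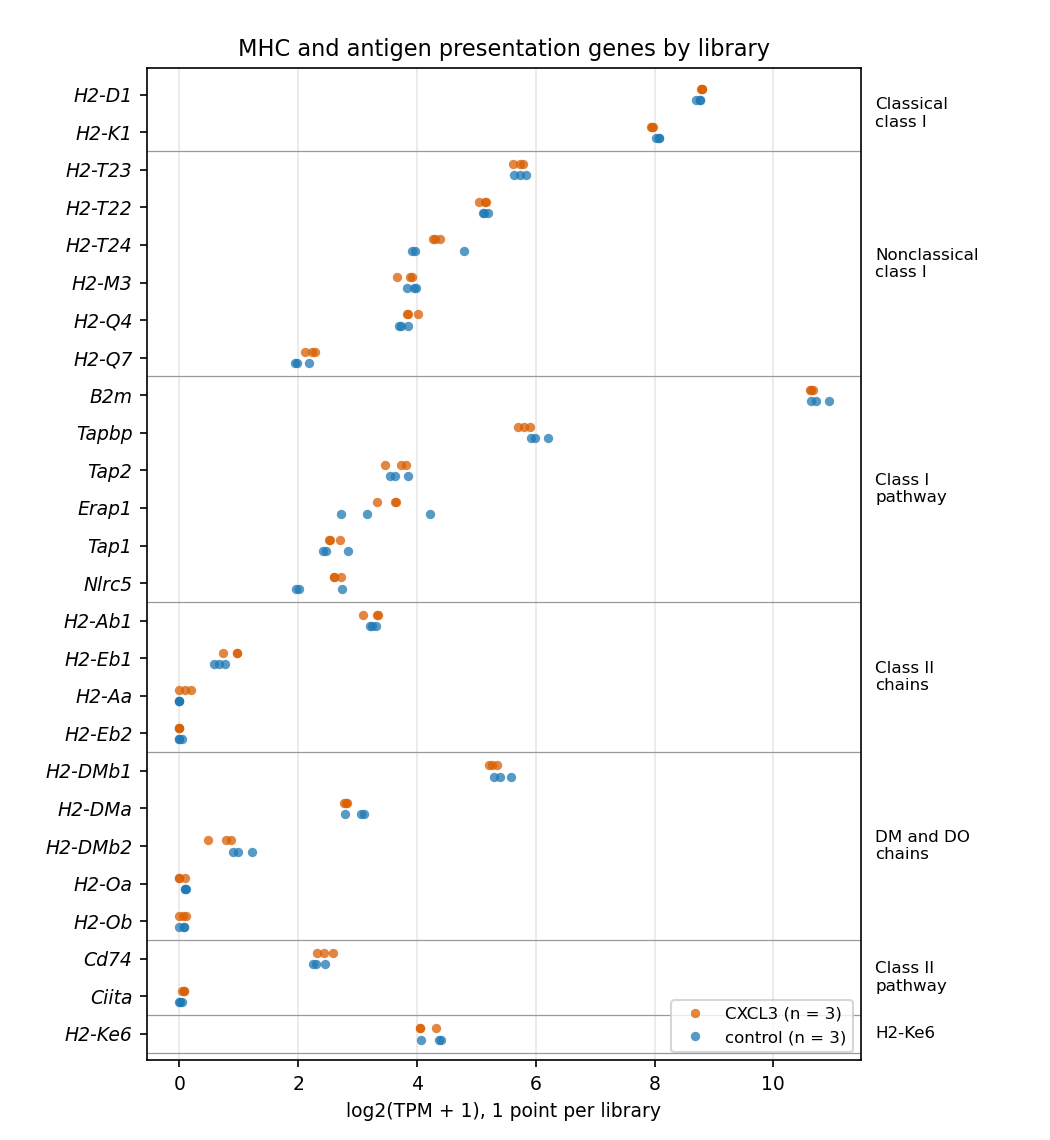
Each point is 1 library, with log2(TPM + 1) on the horizontal axis and genes down the page by class, for the 19 members that were tested and all class II genes; orange marks CXCL3 and blue marks control libraries (n = 3 each). B2m, H2-D1 and H2-K1 lie at the right in both groups, and H2-Aa, H2-Eb2, H2-Oa, H2-Ob and Ciita lie at or near 0.

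Nonclassical class I chains are less variable relatives of H2-K1 and H2-D1 with narrower roles. Of the 22 annotated here, 6 reached 1 TPM in at least 3 libraries and 8 were listed at 0 in all 6 libraries. H2-T23 encodes Qa-1, which displays leader peptides of other class I chains to NKG2 receptors of natural killer cells. It was the most abundant of them at 48.3, 52.3 and 54.4 TPM with CXCL3, against 52.2, 56.3 and 48.8 TPM in controls. H2-T22, a ligand of some gamma delta T cells, was at 34.4, 34.7 and 32.0 TPM with CXCL3, against 33.9, 35.7 and 33.5 TPM in controls. H2-T24 was at 18.6, 19.8 and 18.3 TPM with CXCL3, against 26.6, 14.2 and 14.7 TPM in controls. The values of H2-T23 and H2-T22 overlapped between the groups throughout, and for H2-T24 the controls lay on both sides of the CXCL3 libraries.

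H2-M3, which presents peptides that begin with N-formyl methionine, was at 13.7, 14.2 and 11.7 TPM with CXCL3, against 14.9, 13.2 and 14.4 TPM in controls. H2-Q4 was at 13.4, 15.1 and 13.2 TPM with CXCL3, against 11.97, 12.4 and 13.5 TPM in controls. H2-Q7, which encodes a chain of Qa-2, was at 3.84, 3.68 and 3.35 TPM with CXCL3, against 2.84, 2.95 and 3.51 TPM in controls. All 3 overlapped between the groups. The other 16 nonclassical chains did not reach the filter and were not tested, and their highest value was 1.67 TPM, for H2-Q6 in CXCL3 library 2. Of these, 6 are H2-M10 genes, listed at 0 in every library together with H2-M9 and H2-M11. As a sum, nonclassical chains held 137.3 ± 5.55 TPM with CXCL3 and 137.0 ± 7.998 TPM in controls, which was 18.4% to 20.9% of the classical sum across the 6 libraries. Much sequence was shared here, with 35.8% of the words of H2-T22 found elsewhere, mostly in H2-T10, and 28.4% of those of H2-Q7 and 32.0% of those of H2-Q6. The antisense gene A930015D03Rik (mean 1.5 TPM) overlaps H2-T22, H2-T23 and H2-T24, and no source says whether reads were counted by strand.

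All 6 genes of the class I pathway were measured, and their levels spanned more than those of the chains. B2m, the light chain of every class I molecule, was at 1565, 1587 and 1621 TPM with CXCL3, against 1591, 1687 and 1950 TPM in controls. It ranked 78 among all genes, and its level was 2.28 to 2.77 times the summed level of H2-K1 and H2-D1 in each library. Tapbp, which encodes tapasin, was at 54.5, 58.6 and 51.2 TPM with CXCL3, against 59.6, 72.9 and 62.5 TPM in controls. Tapbp was the member of this pathway whose groups did not overlap, with the CXCL3 libraries below. Tap2 was at 13.1, 12.2 and 10.1 TPM with CXCL3, against 13.3, 11.4 and 10.6 TPM in controls. Its partner Tap1 was at 4.74, 5.49 and 4.80 TPM with CXCL3, against 6.17, 4.34 and 4.5 TPM in controls. The transporter is a pair of 1 TAP1 and 1 TAP2 chain, and the Tap2 transcript level was 2.10 to 2.77 times that of Tap1 across libraries.

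Erap1 and the coactivator gene Nlrc5 varied widely among controls. Erap1 was at 11.5, 11.4 and 9.01 TPM with CXCL3, against 17.5, 7.89 and 5.58 TPM in controls. Nlrc5 was at 5.10, 5.06 and 5.59 TPM with CXCL3, against 5.64, 2.90 and 3.02 TPM in controls. In both genes control 1 lay above every CXCL3 library and controls 2 and 3 below. Erap1 overlaps Cast on the opposite strand (mean 112 TPM), Tap1 overlaps the immunoproteasome gene Psmb9 on the opposite strand (4.23 TPM) and Tapbp overlaps Zbtb22 on the same strand (22.0 TPM), which leaves the division of reads between these pairs uncertain.

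The alpha and beta chains of the presenting class II molecules were scarce, and H2-Ab1 was the 1 of them that reached the filter. The part of strain in these levels was not tested either. H2-Ab1, the beta chain of I-A, was at 9.08, 9.16 and 7.49 TPM with CXCL3, against 8.90, 8.24 and 8.42 TPM in controls. Its partner H2-Aa, the alpha chain of I-A, was listed at 0.15, 0.07 and 0 TPM with CXCL3 and at 0 in all 3 controls. H2-Eb1, the beta chain of I-E, was at 0.67, 0.96 and 0.95 TPM with CXCL3, against 0.71, 0.50 and 0.58 TPM in controls. H2-Eb2 was listed at 0 in the CXCL3 libraries and at no more than 0.03 TPM in controls. The alpha and beta chains summed to 1.22% to 1.47% of the classical class I level across libraries. Cd74, the invariant chain, was at 3.97, 4.38 and 4.97 TPM with CXCL3, against 3.92, 3.76 and 4.47 TPM in controls. Ciita, the class II coactivator, was at 0.03, 0.06 and 0.05 TPM with CXCL3, against 0.03, 0 and 0.01 TPM in controls, below the filter in all 6.

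Of the DM chains, which load class II molecules, H2-DMb1 was more abundant than H2-Ab1 in every library and H2-DMa less. H2-DMb1 was at 36.3, 37.4 and 39.7 TPM with CXCL3, against 41.1, 46.7 and 38.5 TPM in controls, which was 3.99 to 5.66 times the level of H2-Ab1. Its partner H2-DMa was at 5.82, 6.09 and 5.96 TPM with CXCL3, against 5.94, 7.63 and 7.28 TPM in controls. H2-DMb2, a second DM beta chain, was at 0.83, 0.40 and 0.72 TPM with CXCL3, against 0.86, 1.33 and 0.97 TPM in controls and was not tested. The words of H2-DMb1 and H2-DMb2 coincide in 27.2% of the H2-DMb1 transcript, and H2-DMa overlaps the abundant gene Brd2 on the opposite strand (mean 151 TPM). H2-Oa and H2-Ob, the chains of the DM inhibitor DO, were at or below 0.08 TPM in every library. H2-Ke6, which the symbol rule also takes in, lies among these genes but encodes a hydroxysteroid dehydrogenase and no MHC chain. It was at 15.6, 18.9 and 15.7 TPM with CXCL3, against 15.8, 20.2 and 19.6 TPM in controls, and 96.3% of its words also occur in the overlapping gene Gm20427.

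Macrophage markers, 15 genes, spanned a wide range beside the class II genes. Mertk and Mrc1 averaged 6.55 and 16.98 TPM with CXCL3, against 5.43 and 11.5 TPM in controls, near the level of H2-Ab1 and below that of H2-DMb1. Adgre1, which encodes F4/80, was at 455, 458 and 436 TPM with CXCL3, against 507, 363 and 446 TPM in controls, which was 87.7 to 129 times the level of Cd74 in the same library. Cd68 was at 288, 287 and 276 TPM with CXCL3, against 277, 289 and 319 TPM in controls, and Csf1r at 102, 102 and 98.5 TPM with CXCL3, against 110, 84.3 and 89.6 TPM in controls. Markers of dendritic cells and B cells, the other cells that carry class II, were scarce. The 9 dendritic cell markers summed to 2.27 to 3.69 TPM with CXCL3 and 1.97 to 2.87 TPM in controls, with Flt3 and Cd209a listed at 0 in every library. Zbtb46, the 1 of the 9 that passed the filter, was at 2.07, 1.66 and 1.55 TPM with CXCL3, against 1.86, 1.41 and 1.13 TPM in controls. The 5 B cell markers summed to at most 0.65 TPM with CXCL3 and 0.76 TPM in controls. Which cells carried the class II transcripts was not measured.

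**Figure D2:**
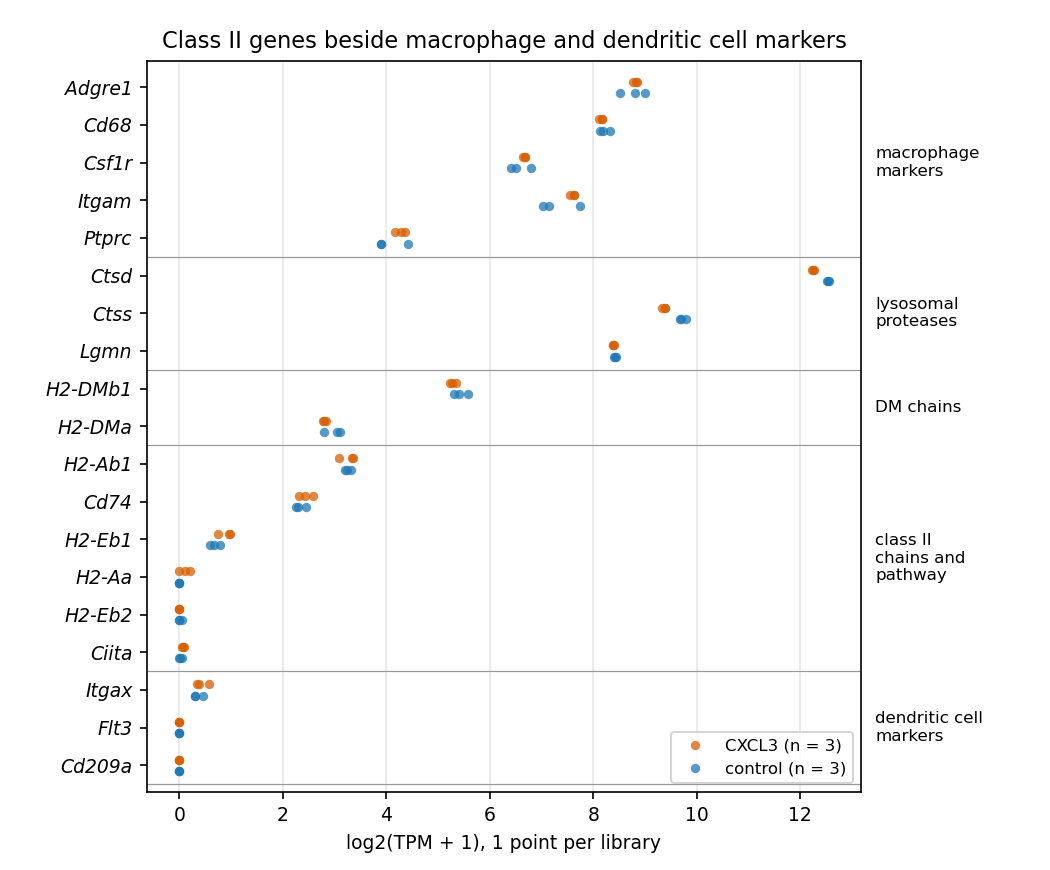
Each point is 1 library, with log2(TPM + 1) on the horizontal axis; orange marks CXCL3 and blue marks control libraries (n = 3 each). Of the 15 macrophage markers Adgre1, Cd68, Csf1r, Itgam and Ptprc are shown, and of the 9 dendritic cell markers Itgax, Flt3 and Cd209a. Adgre1 (363 to 507 TPM) and the lysosomal proteases lie to the right, and Ptprc (13.8 to 20.4 TPM) lies left of H2-DMb1 (36.3 to 46.7 TPM). H2-Aa, H2-Eb2 and Ciita lie at or near 0 in both groups.

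The study asked how fibroblasts respond to CXCL3. For the MHC and antigen presentation genes, no change with CXCL3 was detected at the threshold used. Differences were tested in 1 limma fit over the 13139 genes with at least 1 TPM in at least 3 of the 6 libraries, on log2(TPM + 1), with Benjamini-Hochberg adjustment. Of the 42 members, 19 passed that filter and 0 of these had an adjusted p under 0.05, where 0.160% of all genes tested did (21 genes, with 0.0304% higher and 0.129% lower). An unadjusted p under 0.05 was found for 1 of the 19 members (5.26%), Tapbp, against 11.6% of all genes tested. Groups did not overlap for 3 of the 19 (15.8%), H2-D1, H2-K1 and Tapbp, against 17.2% of all genes tested, so that this share lay close to the background.

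The sizes were small in each class. Classical class I chains had log2 fold changes of 0.05 for H2-D1 and -0.10 for H2-K1 (limma, adjusted p = 0.656 and 0.472), with 95% intervals of -0.08 to 0.18 and -0.23 to 0.03. The 6 nonclassical class I chains had a median of 0.035 with 3 positive and 3 negative values, from -0.10 for H2-M3 to 0.18 for H2-Q7. The 6 class I pathway genes had a median of 0.0075 with 4 positive and 2 negative. The 3 class II chains tested, H2-Ab1, H2-DMa and H2-DMb1, had a median of -0.15 with 1 positive and 2 negative. The median over the 19 members was 0.0026, where that of all genes tested was 0.07. The classes were set side by side in this way, and a difference between them was not tested.

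The lowest adjusted p among members belonged to Tapbp, with a log2 fold change of -0.24 ± 0.10 SE (limma, adjusted p = 0.424). It was lower in 3 of 3 CXCL3 libraries than in every control. For B2m the log2 fold change was -0.13 ± 0.08 (adjusted p = 0.506), and leaving out control 3, the highest library, brought it to -0.04. Nlrc5 had the largest positive value among members, 0.41 ± 0.22 (adjusted p = 0.472). H2-Ab1 stood at 0.0043 ± 0.13 and Cd74 at 0.11 ± 0.14 (adjusted p = 0.988 and 0.713). The 95% intervals of 16 of the 19 members lay within 1.5-fold in either direction and those of all 19 within 2-fold, on the scale of TPM + 1, which understates the change of genes with few TPM. The widest were those of Erap1 (0.64- to 1.98-fold), Nlrc5 (0.93- to 1.90-fold) and H2-T24 (0.74- to 1.53-fold). A p above the threshold does not show that the groups were alike.

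**Figure D3:**
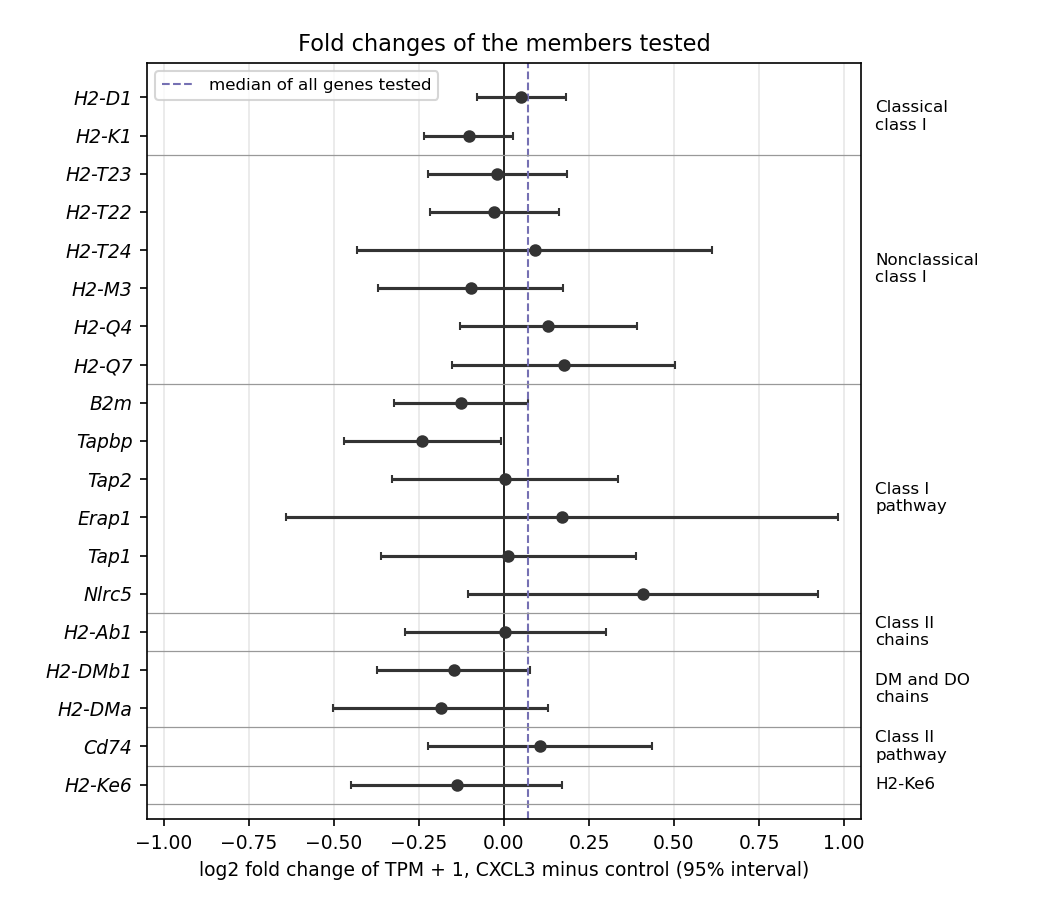
Points give the log2 fold change of TPM + 1, CXCL3 minus control, and bars its 95% interval from limma (n = 3 each) for the 19 members tested; the dashed line is the median of all 13139 genes tested (0.07). All intervals but that of Tapbp cross 0, and the widest belong to Erap1, Nlrc5 and H2-T24.

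The members with wide intervals followed a difference between control libraries. For each library, each gene's difference from its mean over the libraries was set against the length of its longest transcript. Spearman's rho over the 19 members was 0.58, 0.52 and 0.14 in CXCL3 libraries 1, 2 and 3, and 0.33, -0.45 and -0.64 in controls 1, 2 and 3. Over 13114 genes it was 0.40, 0.37 and 0.20 in CXCL3 libraries, and 0.45, -0.50 and -0.48 in controls. The points share libraries and are genes, not replicates. Nlrc5 (7578 bases) and Erap1 (5644 bases) have the longest transcripts of the members tested. With each library's trend with length and GC content removed, the log2 fold change of Nlrc5 was 0.18 (limma, adjusted p = 0.47). That of Erap1 was -0.022 (0.973) and that of H2-T24, whose transcript has 2182 bases, 0.11 (0.812). The removal takes no account of group, so it also takes out any difference with CXCL3 that follows length. The part of length in these values was not tested. Without control 1, 4 of the 19 members passed (21.1%), against 32.4% of all genes tested. These were Nlrc5 (log2 fold change 0.66, adjusted p = 0.00831), H2-T24 (0.37, 0.0145), Erap1 (0.60, 0.0366) and Tapbp (-0.30, 0.0456). Without controls 2 and 3, Nlrc5, H2-T24 and Erap1 had log2 fold changes of -0.09, -0.47 and -0.68, 0 members passed and 0.639% of all genes did. The direction for these 3 genes therefore depended on which controls were used.

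**Figure D4:**
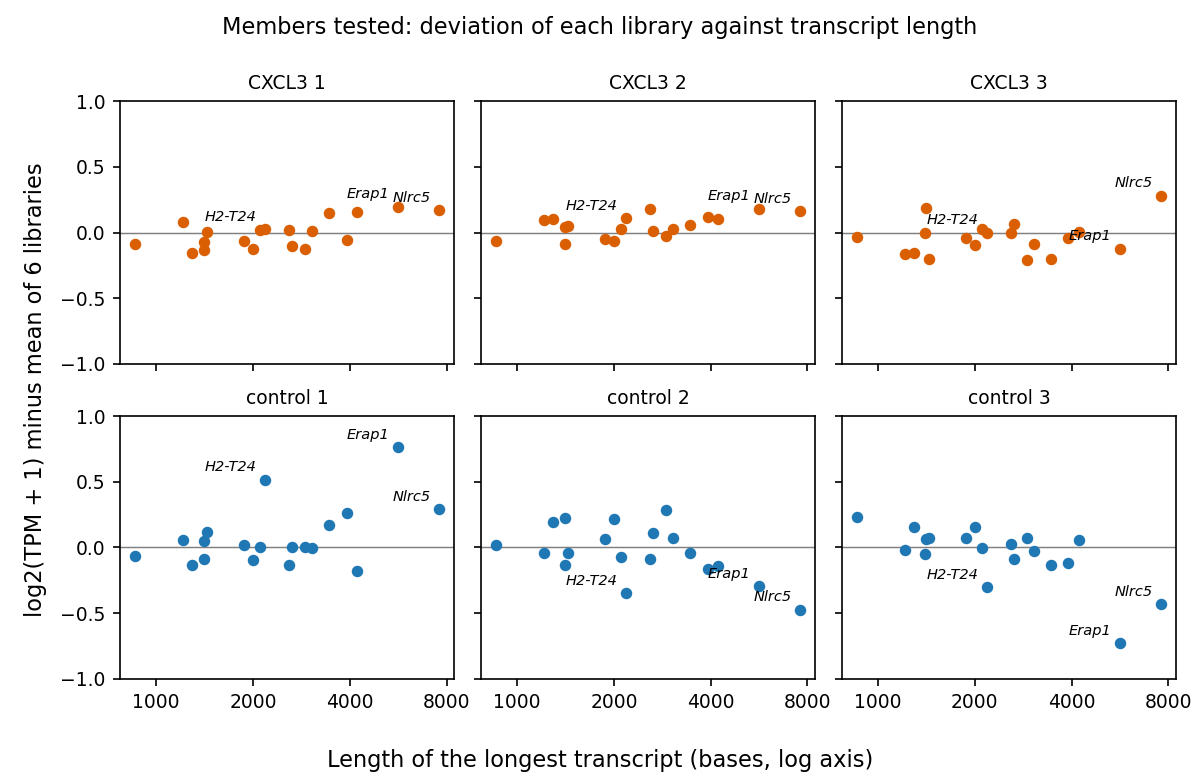
Each panel is 1 library, CXCL3 above and control below, and each point 1 of the 19 members tested, with the length of its longest transcript (log axis, bases) against log2(TPM + 1) minus the mean of the 6 libraries. Erap1 and Nlrc5 lie above 0 in control 1 and below 0 in controls 2 and 3.

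Genes that feed or control presentation gave 0 calls in either direction across 7 lists with 60 genes tested. Over all genes tested the share called was 0.160%, so that few or no calls among 60 genes would match it. Without control 1, 17 of the 60 passed, 11 higher and 6 lower, where 32.4% of all genes tested did. Of the genes named below, these included Canx, Creb1, Ctsd, Ctsl, Ctss, Fcgrt, Ganab, Ifnar2, Nfya and Psmb5. In the proteasome list (0 of 9 called), the immunoproteasome subunits Psmb8 and Psmb9 were at 35.0 ± 1.25 and 4.16 ± 0.52 TPM with CXCL3, against 36.2 ± 4.12 and 4.30 ± 1.17 TPM in controls. Psmb5, the constitutive counterpart of Psmb8, was at 288.4 ± 5.48 TPM with CXCL3 and 314.6 ± 37.3 TPM in controls (limma, adjusted p = 0.546). Psme1 and Psme3, which encode proteasome activators, had adjusted p-values of 0.635 and 0.798. In the list of peptide loading chaperones (0 of 8), Pdia3, the oxidoreductase ERp57 of the loading complex, was at 342, 343 and 342 TPM with CXCL3, against 375, 392 and 365 TPM in controls. Its log2 fold change was -0.14 ± 0.06 (limma, adjusted p = 0.426). Pdia3 was the 1 gene of these 8 whose groups did not overlap, against 17.2% of all genes tested. Canx, the lectin chaperone calnexin, was at 314, 318 and 306 TPM with CXCL3, against 311, 221 and 247 TPM in controls (0.28 ± 0.12, adjusted p = 0.426), and Ganab, a glucosidase subunit, had an adjusted p of 0.523.

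Among the genes of class II processing (0 of 9), the proteases Ctss and Ctsd had the smallest p. Groups did not overlap for 6 of the 9, against 17.2% of all genes tested, with Ctss, Ctsd, Lgmn, Ifi30 and Ctsz below and Ctsl above with CXCL3. Ctss, which encodes cathepsin S and trims the invariant chain, was at 645, 666 and 670 TPM with CXCL3, against 816, 828 and 880 TPM in controls. The groups did not overlap, and the log2 fold change was -0.35 ± 0.06 (limma, adjusted p = 0.117). Ctsd, which encodes cathepsin D, was at 4917, 4839 and 4769 TPM with CXCL3, against 5870, 5965 and 5975 TPM in controls (-0.29 ± 0.06, adjusted p = 0.157). Ctsl was at 2102 ± 31.6 TPM with CXCL3 and 1868 ± 119.6 TPM in controls (0.17 ± 0.07, adjusted p = 0.413). Both Ctss and Ctsd passed without control 1 (adjusted p = 0.00551 and 0.00635) and without controls 2 and 3 (0.0454 and 0.0323). These proteases are also abundant in macrophages, whose marker list had 6 positive and 9 negative log2 fold changes. Its sum, most of it Lyz2, was lower with CXCL3, while Mrc1 lay higher in every CXCL3 library than in any control (log2 fold change 0.53, adjusted p = 0.248). The 1 marker of 15 called was the complement gene C1qa, where 0.160% of all genes tested were called. C1qa was at 167.1 ± 5.46 TPM with CXCL3 and 288.9 ± 38.6 TPM in controls (log2 fold change -0.78, limma, adjusted p = 0.0493). Groups did not overlap for 6 of the 15, against 17.2% of all genes tested. Lyz2, Tyrobp, C1qa, C1qb and C1qc lay below and Mrc1 above with CXCL3. C1qb and C1qc had log2 fold changes of -0.42 and -0.45 (limma, adjusted p = 0.206 and 0.110). Adgre1, Cd68 and Csf1r were among the markers that overlapped. The part of macrophages in these values was not tested.

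The MHC enhanceosome, the factors that sit on the X and Y boxes, was expressed in both groups, and 0 of 7 genes were called. Rfx5 was at 3.06 ± 0.32 TPM with CXCL3 and 3.42 ± 1.03 TPM in controls. Creb1, which binds the X2 box, was at 14.8, 12.8 and 13.1 TPM with CXCL3, against 13.1, 5.79 and 7.03 TPM in controls (log2 fold change 0.66 ± 0.26, limma, adjusted p = 0.406), and Nfya, a subunit of the Y box factor, at 28.7 ± 0.67 and 22.4 ± 8.63 TPM (adjusted p = 0.478). Rfxank had an adjusted p of 0.648. For Creb1 and Nfya, as for Nlrc5, control 1 lay beside the CXCL3 libraries and controls 2 and 3 below. In the list of interferon signalling (0 of 14), Ifng was listed at 0 in all 6 libraries and Ifnb1 at 0 in 5 of them. The receptor gene Ifnar2 was at 137, 131 and 134 TPM with CXCL3, against 156, 169 and 173 TPM in controls (-0.30 ± 0.07, adjusted p = 0.191). Ifngr2 (44.1 ± 2.29 TPM with CXCL3 and 50.01 ± 1.81 TPM in controls) and the feedback inhibitor Socs1 (7.05 ± 0.22 and 8.78 ± 0.88 TPM) both had adjusted p = 0.437 (limma). Groups did not overlap for 3 of the 14, Ifnar2, Ifngr2 and Socs1, all below with CXCL3, against 17.2% of all genes tested. Irf1, a transcription factor induced by interferon gamma, was at 13.3 ± 0.66 TPM with CXCL3 and 13.5 ± 2.44 TPM in controls.

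Class I-like genes outside the MHC gave 0 of 5 calls. Fcgrt, the neonatal Fc receptor, whose chain also pairs with beta-2 microglobulin, was at 50.1, 52.5 and 48.4 TPM with CXCL3, against 59.7, 65.0 and 64.7 TPM in controls. Its log2 fold change was -0.32 ± 0.08 (limma, adjusted p = 0.228). Groups did not overlap for 2 of the 5, Fcgrt and Procr, both below with CXCL3, against 17.2% of all genes tested. Procr (124.9 ± 4.92 TPM with CXCL3 and 133.7 ± 2.82 TPM in controls) and the metabolite-presenting gene Mr1 (16.2 ± 1.76 and 14.7 ± 3.52 TPM) had adjusted p = 0.504 and 0.683. Genes of costimulation, the second signal that T cells need, and adhesion gave 0 of 8 calls. Groups did not overlap for 2 of the 8, Cd80 and Cd83, both above with CXCL3, against 17.2% of all genes tested. Log2 fold changes were positive for 7 of the 8, with a median of 0.14, where 62.3% of all genes tested were positive with a median of 0.07. Cd83 was at 3.85 ± 0.04 TPM with CXCL3 and 3.03 ± 0.51 TPM in controls (adjusted p = 0.472), and Cd80, which encodes B7-1, at 8.39 ± 0.08 TPM with CXCL3 and 7.44 ± 0.26 TPM in controls (0.526). The gene of the inhibitory ligand PD-L1, Cd274, was at 13.5 ± 0.30 TPM with CXCL3 and 11.9 ± 2.70 TPM in controls (0.587).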

How the data were processed

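RNA from 3 CXCL3 and 3 control libraries was sequenced. Per the labels' protocols, RNA was extracted with TRIzol and treated with DNase before Illumina library preparation. TPM of 51912 genes were deposited by the authors in a single table, with 0 columns of other samples and column sums of 984281 to 986705. The submitters' processing notes name fastp, HISAT, RSEM and GRCm38.p5, with no version, and neither the annotation nor the strandedness is given. Depth is unknown from TPM, so the spread between libraries gives the precision.

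Identifiers were matched to GENCODE mouse M21 on GRCm38 (51719 genes with a symbol). Genes with at least 1 TPM in at least 3 of 6 libraries entered a two-sided limma test (version 3.58.1, R 4.3.3, eBayes with a trend) of log2(TPM + 1), as CXCL3 minus control. P-values were adjusted over 13139 genes by the Benjamini-Hochberg method, with a threshold of 0.05. The code of the fit was run on simulated data, with genes drawn independently and the same SD in both groups. The libraries here differ from that in both respects, so the run does not show how the fit behaves on them. Members and gene lists were chosen with earlier results of these data known. All members that passed the filter are given by library, and of each pathway list the 3 genes with the smallest p. Other list and marker genes named, and the gene ratios, were chosen after their values were seen. Ifi30 and Cd1d2 entered their lists whatever their annotated type. The settings tried were pseudocounts of 0.1 and 5, no filter and one of 5 TPM, median-of-ratios and quantile scaling, eBayes without trend, library weights, the replicate number as a block, removal of length and GC trends by loess, and leaving out libraries. The fit without controls 2 and 3 was added after the data were seen.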

Additional observations from a re-analysis of the deposited data

How the results depend on the processing

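The count of 0 members called was the same in every setting tried except without control 1, where 4 members passed, so that it ranged from 0 to 4 when 1 library was left out. The count over all genes, 21, ranged from 0 to 4254 when 1 library was left out. Without a filter it was 0, after median-of-ratios scaling 5, under eBayes without trend 1 and under library weights 1446. Of the 60 pathway list genes, 0 as reported, 9 passed under library weights and 17 without control 1. Under the other settings with more than 1 control, 0 passed. Over all 13139 genes tested, 1446 passed under library weights and 4254 without control 1. Removing length and GC trends gave 38, and there were 84 without controls 2 and 3, where the lone control is assumed to vary like the CXCL3 libraries. The replicate block gave 12 calls and 0 members. Same-numbered libraries had correlations of deviations of 0.12, -0.011 and 0.077. With 3 libraries per group these cannot decide whether the numbers pair the libraries, and the labels do not say. With 0 calls from limma when CXCL3 library 1, CXCL3 library 2 or control 3 was left out, an unadjusted p under 0.05 was found for 765, 799 and 875 genes, and for 1928 with no filter.

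The median of classical class I chains was -0.10 with median-of-ratios scaling, 0.021 with quantile normalization and -0.0091 after removal of length and GC trends. That of nonclassical chains was -0.019 with a filter of 5 TPM, -0.040 with median-of-ratios scaling, -0.025 with quantile normalization, -0.013 without controls 2 and 3 and from -0.043 to 0.063 with 1 library left out. Without controls 2 and 3 the median was -0.15 for the class I pathway and -0.053 for class II chains. The cause of these shifts was not tested. Median-of-ratios scaling and quantile normalization align the libraries by design, and the median of all genes tested was 0.00022 and 0.0032 under them.

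Values that changed sign passed neither as reported nor under the setting that turned them. With median-of-ratios scaling, H2-D1, H2-Ab1, Tap1 and Tap2 had log2 fold changes of -0.027, -0.066, -0.051 and -0.070, and Psme3 -0.024. With quantile normalization, Cd74, H2-Ab1, H2-T24, Tap1 and Tap2 had -0.016, -0.11, -0.0040, -0.11 and -0.11. After removal of length and GC trends, Erap1, Tap1, Tap2 and Ctsl had -0.022, -0.11, -0.10 and -0.021. Without controls 2 and 3, Erap1, H2-Ab1, H2-T24, Nlrc5, Tap1 and Tap2 had -0.68, -0.053, -0.47, -0.088, -0.26 and -0.17, and H2-DMa and H2-Ke6 0.0033 and 0.068. There, Cd274, Ganab, Mr1, Nfya, Psmb5, Psme3 and Rfxank had -0.12, -0.12, -0.20, -0.15, 0.070, -0.073 and -0.059. With 1 library left out, the range was -0.15 to 0.60 for Erap1, -0.041 to 0.089 for H2-Ab1, -0.050 to 0.0081 for H2-T22, -0.068 to 0.032 for H2-T23, -0.062 to 0.37 for H2-T24, -0.066 to 0.15 for Tap1, -0.072 to 0.10 for Tap2 and -0.049 to 0.12 for Psme3.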

Other observations

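Further H2 rows of the table that the annotation does not type as protein coding carried signal too. H2-T-ps, annotated as a pseudogene, was at 8.17, 9.78 and 6.85 TPM with CXCL3, against 8.85, 10.0 and 8.98 TPM in controls. H2-T10, which shares 32.0% of the words of H2-T22, was at 2.09, 1.83 and 2.54 TPM with CXCL3, against 2.63, 2.50 and 2.14 TPM in controls. Both overlapped between the groups. H2-Q5 was at 0.88, 0.92 and 0.84 TPM with CXCL3, against 0.51, 0.71 and 0.37 TPM in controls, with the CXCL3 libraries above. H2-Ea-ps, the annotated remnant of the I-E alpha chain, was listed at 0 in all 6 libraries, beside H2-Eb1 at 0.50 to 0.96 TPM.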
